A study of Homo sapiens with 6 samples.

Results

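Chromatin accessibility was examined at 10 oncofetal genes, AFP, GPC3, IGF2, H19, DLK1, LIN28B, IGF2BP1, IGF2BP3, HMGA2 and SALL4. These are genes of the fetal liver and other embryonic tissues whose products are used as markers or studied as drivers of liver cancer. They were chosen by name, as 10 of 38899 annotated protein-coding and long noncoding RNA genes. For each gene, ATAC-seq peaks were collected from the gene body, from 10 kb on either side and from within 1 kb of any annotated start site. This gave 122 of the 166021 sites seen in the data set, where a site is a stretch of hg38 covered by overlapping peaks of 1 or more libraries.

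The cells were HLF, a single established human liver cancer line, grown in standard medium. They received DMSO, the vehicle, or 5 μM SNDX-5613 (revumenib), a small molecule that keeps menin from binding MLL1, with 3 libraries per group and 1 batch label for all 6. The labels give 24 h of treatment for both groups and the study's text a longer one, so the duration is uncertain. In ATAC-seq, the Tn5 transposase inserts adapters into DNA that nucleosomes leave exposed, and the lists give each place where the fragments pile up above the local background.

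Oncofetal genes are active before birth, most are low or silent in the adult liver, and they return in part of liver tumours. Several of them share a pathway: LIN28B blocks the maturation of let-7 microRNAs, and the messengers of HMGA2, IGF2BP1 and IGF2BP3 are classic let-7 targets. IGF2 and H19 share an imprinted domain on chromosome 11, in which CTCF bound to the maternal copy keeps IGF2 from the shared enhancers. AFP, GPC3 and DLK1 mark the hepatoblast, the fetal precursor of hepatocytes.

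Depth was uneven. SNDX-5613 replicate 3 listed 40568 regions against 88026 to 113675 in the other libraries, and its genome-wide background pileup was 0.211 fragments against 0.997 to 1.51. A region had to reach 14.2 times that background to be called there, and 4.60 to 6.02 times elsewhere. A site absent from that library alone may only have been too weak for its depth, so counts are also given for the 5 deeper libraries. The label of a liver tumour line was checked through promoter peaks. A promoter peak was present in all 6 libraries at 6 of 6 mesenchymal markers and at 0 of 6 hepatocyte markers. In the 5 deeper libraries it was present at 2 of the 6 hepatocyte markers, TTR and APOB, SERPINA1 had it in 2 libraries, and ALB, APOA1 and HNF4A were bare in every library. It was present in all 6 at 1 of 4 endothelial markers (KDR), while PECAM1 and TEK had none. The leukocyte genes PTPRC and CD3E had none in any library.

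The sequences that carry the main contrasts are shown first. The promoters, each the 250 bases before a RefSeq start (GRCh38.p14, 5′ to 3′ on the strand of the gene, CpG in capitals), compare a start that was closed in every library, in that no peak was called there, AFP (chr4:73435971-73436220), with one that was open in every library, IGF2BP3 (chr7:23470492-23470741). An upstream LIN28B start (chr6:104940715-104940964) is shown because it is rich in CpG and held no called site.
AFP: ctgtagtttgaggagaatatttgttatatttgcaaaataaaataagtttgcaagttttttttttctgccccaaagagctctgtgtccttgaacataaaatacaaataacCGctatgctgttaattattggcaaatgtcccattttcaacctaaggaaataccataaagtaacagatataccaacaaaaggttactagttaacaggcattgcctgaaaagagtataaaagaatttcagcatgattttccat
IGF2BP3: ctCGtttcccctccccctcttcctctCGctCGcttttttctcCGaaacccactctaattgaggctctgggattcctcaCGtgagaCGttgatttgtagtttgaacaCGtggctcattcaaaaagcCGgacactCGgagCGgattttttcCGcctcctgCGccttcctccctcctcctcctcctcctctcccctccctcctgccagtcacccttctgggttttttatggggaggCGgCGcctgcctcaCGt
LIN28B: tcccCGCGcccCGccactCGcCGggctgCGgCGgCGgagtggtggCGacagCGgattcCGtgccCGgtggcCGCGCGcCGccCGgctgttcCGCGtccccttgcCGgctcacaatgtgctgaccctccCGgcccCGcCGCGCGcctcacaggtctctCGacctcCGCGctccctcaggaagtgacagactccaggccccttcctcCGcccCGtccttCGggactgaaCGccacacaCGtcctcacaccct

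The AFP promoter held 1 CpG. Of 35116 RefSeq promoters of this length, 14.7% held no more, and the median was 11. IGF2BP3 held 15 CpGs and the upstream LIN28B start 33. RefSeq promoter sequences were matched for 4 of the 10 genes, AFP, LIN28B, IGF2BP3 and H19.

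Accessible sites follow, each as 201 bases centred on the strongest summit (hg38, plus strand). The GPC3 promoter site (chrX:133985879-133986079) was called after SNDX-5613 in 2 libraries and in 0 DMSO libraries, the SALL4 and IGF2 intron sites (chr20:51800212-51800412 and chr11:2156576-2156776) had higher pileup after SNDX-5613, and the HMGA2 upstream site (chr12:65823002-65823202) had lower. Capitals mark CCAAT or its complement ATTGG, the box bound by NF-Y, and a loose core of the CTCF motif (CC, any 3 bases, AG, any 2 bases, GGC, or the complement).
GPC3 promoter: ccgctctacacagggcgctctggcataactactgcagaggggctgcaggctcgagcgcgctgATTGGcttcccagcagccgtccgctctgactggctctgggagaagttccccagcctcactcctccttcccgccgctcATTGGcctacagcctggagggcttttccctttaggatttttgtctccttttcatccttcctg
SALL4 intron: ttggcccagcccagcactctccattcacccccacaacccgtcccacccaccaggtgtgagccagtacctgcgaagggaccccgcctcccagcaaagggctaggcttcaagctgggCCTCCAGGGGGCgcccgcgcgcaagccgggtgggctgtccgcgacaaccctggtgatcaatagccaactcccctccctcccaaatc
IGF2 intron: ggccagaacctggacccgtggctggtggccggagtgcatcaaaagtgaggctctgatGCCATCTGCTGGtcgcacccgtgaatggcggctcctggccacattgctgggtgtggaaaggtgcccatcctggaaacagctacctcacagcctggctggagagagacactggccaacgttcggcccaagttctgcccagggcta
HMGA2 upstream: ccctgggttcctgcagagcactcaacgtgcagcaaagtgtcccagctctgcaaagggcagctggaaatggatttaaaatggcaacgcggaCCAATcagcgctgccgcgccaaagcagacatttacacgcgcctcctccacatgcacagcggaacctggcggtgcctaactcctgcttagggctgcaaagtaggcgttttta

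The sites were spread unevenly over the 10 genes. HMGA2 had 33 sites, IGF2BP3 31 and IGF2BP1 17, together 81 of the 122 sites and 17 of the 21 that were called in every library. IGF2 had 11 sites, LIN28B 10, SALL4 10, AFP 5, GPC3 3, and H19 and DLK1 1 each. A promoter peak, meaning a site whose strongest summit lay within 1 kb of any annotated start of the gene, was present in all 6 libraries at 4 of the 10 genes, LIN28B, IGF2BP1, IGF2BP3 and HMGA2. Over all 38899 genes this share was 44.1%, and it was 63.6% over the 20033 protein-coding genes and 23.4% over the 18866 long noncoding RNA genes. In the 5 deeper libraries 6 of the 10 genes had one, now with IGF2 and AFP, against 49.6% of all genes. Both counts were near the share over all genes. All of the 10 but H19 are protein-coding, and the count in all 6 libraries was below the 63.6% of such genes. H19 and DLK1 had no promoter peak in any library. By place, 21 of the 122 sites were promoters, 69 were in introns, 11 in exons and 21 in the flanks.

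**Figure D1:**
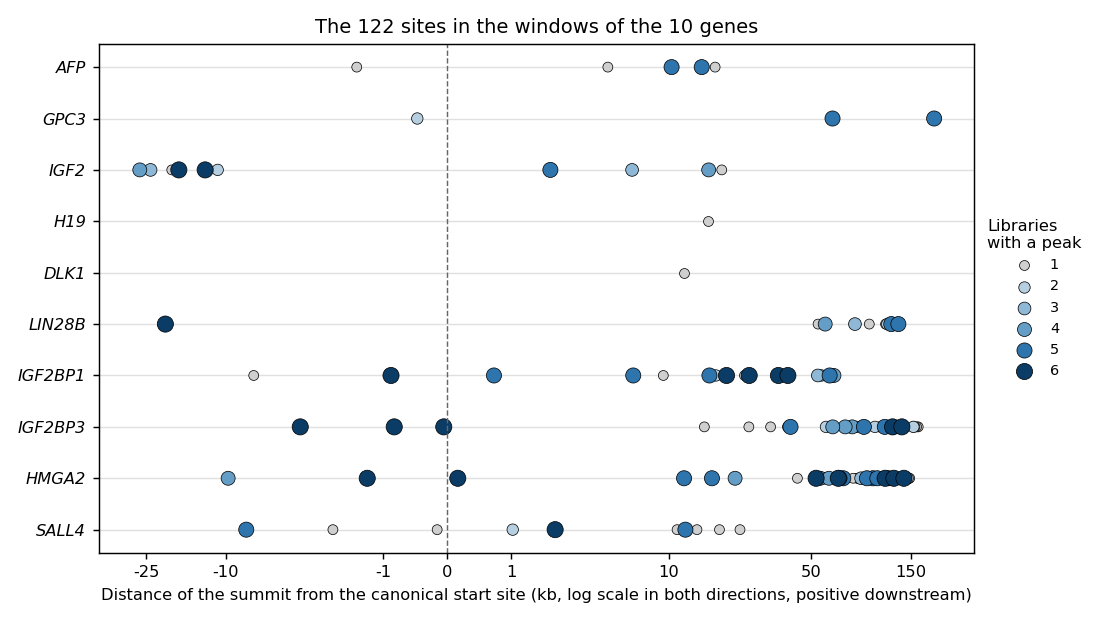
Position of each of the 122 sites relative to the canonical start of its gene (x axis, kb on a log scale in both directions, positive downstream), with 1 row per gene and darker, larger points for sites called in more of the 6 libraries. The dark points of IGF2BP1, IGF2BP3 and HMGA2 lie at the start and through the gene body, while AFP, GPC3, H19 and DLK1 have no point for 6 libraries.

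The windows differ in length, so sites were also counted per 100 kb. SALL4 had 24.9 sites per 100 kb, IGF2 22.3, IGF2BP1 21.6, HMGA2 20.4 and IGF2BP3 17.2. GPC3 had 0.64 sites per 100 kb over its long window of 471 kb, and DLK1 and H19 had 3.08 and 3.40. Counting sites called in all 5 deeper libraries, the density was 11.4 per 100 kb at IGF2BP1, 9.27 at HMGA2, 7.46 at SALL4, 6.09 at IGF2, 4.99 at IGF2BP3, 4.44 at AFP, 1.80 at LIN28B and 0.42 at GPC3, while H19 and DLK1 had no such site. LIN28B and IGF2BP3, each with a promoter peak in every library, were thus below SALL4 and IGF2 in density.

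LIN28B, the RNA-binding protein that blocks let-7 (ENSG00000187772.8, chr6:104936616-105083332, plus strand), held the strongest peak of any of the 10 genes as ranked within each library's own list. The site (chr6:104936495-104937468) lay 329 bp into the transcript with the most upstream start and 20162 bp before the canonical start. Its percentile in the peak list, where 100 is the strongest peak, was 98.2, 97.96 and 97.1 with DMSO and 97.5, 97.9 and 92.3 after SNDX-5613. The pileup was 174, 222 and 206 fragments in DMSO and 191, 202 and 33 in SNDX-5613. Divided by the library's median pileup over the sites common to all 6 libraries, it was 2.82 ± 0.077 in DMSO and 2.75 ± 0.019 in SNDX-5613 (SD, n = 3 each), and the groups overlapped. Neither the canonical start nor the CpG-rich start printed above had a called site within 1 kb in any library. The other 9 sites of the window were 54 kb or more downstream, and 0 of them were called in all 6 libraries.

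**Figure D2:**
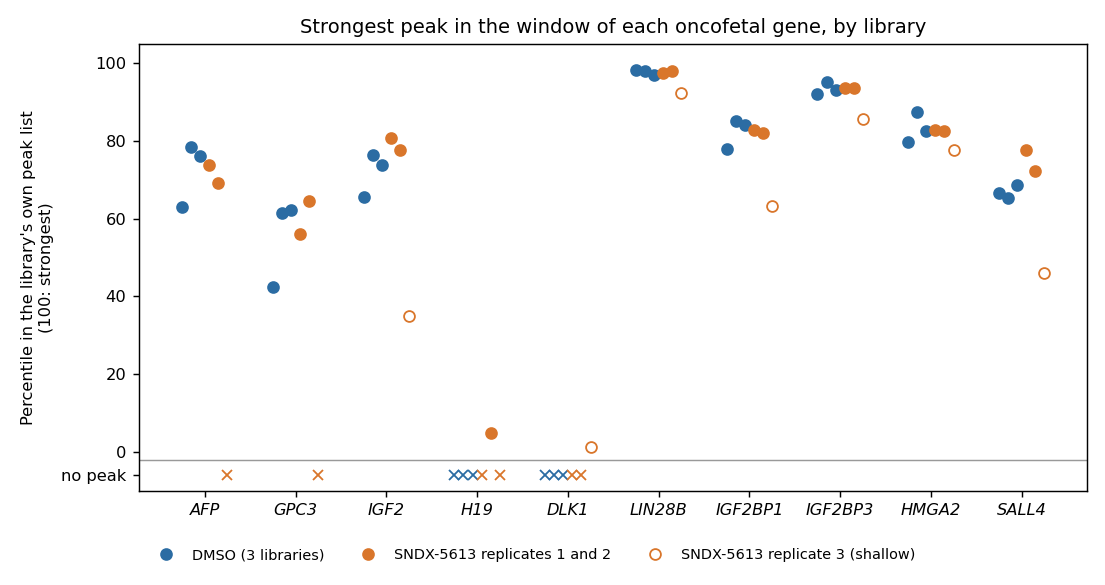
Percentile of the strongest peak in the window of each gene (y axis, 100 is the strongest peak of the library's own list), with 1 point per library and a cross where no peak was called. LIN28B is at 92.3 or above in all 6 libraries, while H19 and DLK1 each have a single weak peak in 1 library.

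IGF2BP3, an oncofetal RNA-binding protein named for its binding to the IGF2 messenger (ENSG00000136231.14, chr7:23310209-23470491, minus strand), had the highest pileups of the 10 genes. The summit 3916 bp before its start reached 212, 303 and 284 fragments in DMSO and 238, 262 and 44 in SNDX-5613. That site also lies within 1 kb of the start of the unnamed gene ENSG00000289109, so it cannot be assigned to IGF2BP3 alone. Relative to the library median it stood at 3.72 ± 0.162 in DMSO and 3.55 ± 0.137 in SNDX-5613 (SD, n = 3 each). At the canonical start, 2 sites with summits 40 and 778 bp upstream were called in all 6 libraries. The site at 778 bp had pileups of 156, 209 and 225 in DMSO and 188, 174 and 27 in SNDX-5613, and its groups overlapped.

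The local background around the IGF2BP3 start was 31.1, 38.4 and 44.6 fragments in the DMSO libraries at the site 40 bp upstream, whereas at the LIN28B site it was 6.87, 8.10 and 9.20. A percentile of −log10 p is lower for the same pileup where the background is higher. In the DMSO lists the site 778 bp before the IGF2BP3 start, with 156 to 225 fragments, ranked at 82.4 to 87.6, and the LIN28B site, with 174 to 222, at 97.1 to 98.2.

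IGF2BP1, the related RNA-binding protein (ENSG00000159217.10, chr17:48997385-49056145, plus strand), was open at its canonical start and through its introns. Its strongest promoter site, with its summit 841 bp upstream, had pileups of 101, 143 and 146 in DMSO and 114, 125 and 21 in SNDX-5613. The relative pileup was 1.81 ± 0.132 and 1.70 ± 0.062 (SD, n = 3 each), and the groups overlapped. A start of the unnamed gene ENSG00000250838 lies within 1 kb of the same site. All 5 IGF2BP1 sites common to the 6 libraries had overlapping groups.

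HMGA2, an architectural chromatin protein and let-7 target (ENSG00000149948.14, chr12:65824460-65966291, plus strand), had the most sites and the most that were lower after SNDX-5613. In the 5 deeper libraries 15 of its sites were common. By percentile 3 of these were lower and 2 higher without overlap of the groups, against 14.4% and 14.3% of all sites. By relative pileup 7 were lower and 1 higher, against 18.8% and 14.3%. At the promoter (chr12:65823399-65825296, summit 119 bp downstream of the start) the pileup was 76, 104 and 99 fragments in DMSO and 70, 87 and 14 in SNDX-5613. Each was set against its library's median, which gave 1.27, 1.32 and 1.32 in DMSO and 1.00, 1.19 and 1.17 in SNDX-5613. The SNDX-5613 libraries all lay below the DMSO libraries, as they did at 9.05% of all sites tested, with a mean change of -14.2% in relative pileup (log2 ratio -0.22).

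A neighbouring HMGA2 site (chr12:65822884-65823215, summit 1358 bp upstream), whose sequence with 1 CCAAT box is printed above, had the same order. Its relative pileup was 1.38, 1.46 and 1.61 in DMSO and 1.29, 1.11 and 1.08 in SNDX-5613, a mean change of -21.9% (log2 ratio -0.36). The measured value of each SNDX-5613 library was below the lowest DMSO library. In SNDX-5613 replicate 3 these values rest on 14 fragments at the promoter and 13 at the upstream site, and the exact Poisson 95% intervals, for counting error only, were 0.638 to 1.96 and 0.577 to 1.85, which span the DMSO values. Another HMGA2 site was lower by percentile only, in an exon 135294 bp downstream (chr12:65963179-65963386). It was weak in every library, at 12 to 20 fragments in the 5 deeper libraries and 3 in SNDX-5613 replicate 3, and its relative pileups overlapped between the groups.

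To compare ranks, percentiles were taken within each library among the 33405 sites common to all 6 libraries. The HMGA2 promoter was at 30.8, 32.8 and 29.9 in DMSO and 19.2, 28.3 and 27.0 in SNDX-5613, a shift of -6.36 percentile points. The upstream site was at 36.5, 39.4 and 44.4 in DMSO and 35.7, 23.1 and 19.4 in SNDX-5613, a shift of -14.0 points. The exon site was at 3.75, 6.29 and 6.16 in DMSO and 2.87, 3.34 and 3.29 in SNDX-5613, a shift of -2.24 points. In all 3 the groups did not overlap, which held in this direction for 8.08% of the common sites (two-sided exact permutation p = 0.1, the smallest that 3 against 3 libraries allow). Ranked by fold enrichment in place of −log10 p, the promoter and the upstream site moved the other way, by 3.73 and 0.98 points.

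SALL4, a zinc finger transcription factor of the embryo and of aggressive liver tumours (ENSG00000101115.13, chr20:51782331-51802521, minus strand), had 1 site higher after SNDX-5613 by rank, the only one among the 21 sites common to all 6 libraries. The site lay in an intron 2209 bp downstream of the canonical start (chr20:51800083-51800704). Its pileup was 35, 33 and 43 fragments in DMSO and 50, 47 and 8 in SNDX-5613. Relative to the library median these were 0.583, 0.418 and 0.573, and 0.714, 0.644 and 0.667. The SNDX-5613 libraries all lay above the DMSO libraries, as they did at 11.6% of all sites tested, with a mean change of 30.0% (log2 ratio 0.38).

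By percentile the SALL4 intron site was at 28.7, 16.3 and 26.1 in DMSO and 36.3, 30.1 and 36.2 in SNDX-5613, a shift of 10.5 points (two-sided exact permutation p = 0.1). Of all common sites, 8.54% were higher in this sense. Ranked over all regions of each list the shift was -1.52 points. The 8 fragments of SNDX-5613 replicate 3 have an exact Poisson 95% interval of 3.45 to 15.8, for counting error only, so that library's relative pileup could lie between 0.288 and 1.31. The SALL4 promoter itself was nearly bare. A summit 117 bp before the canonical start was called in SNDX-5613 replicate 1 only, with 13 fragments, and one 93 bp into another transcript in DMSO replicate 3 and SNDX-5613 replicate 1, with 16 and 10.

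IGF2, a fetal growth factor and the ligand of the IGF1 receptor (ENSG00000167244.22, chr11:2129112-2158391, minus strand), had 11 sites, of which 2 were common to all 6 libraries, both in introns. The intron site 1660 bp downstream of the nearest start and 17287 bp upstream of the canonical one (chr11:2156419-2156988) had 40, 58 and 59 fragments in DMSO and 68, 68 and 10 in SNDX-5613. Its relative pileup was 0.667, 0.734 and 0.787 in DMSO and 0.971, 0.932 and 0.833 in SNDX-5613. All SNDX-5613 libraries were above all DMSO libraries, by 25.1% on average (log2 ratio 0.32, two-sided exact permutation p = 0.1). The 10 fragments of SNDX-5613 replicate 3 give an interval that spans the DMSO values, with an upper end of 1.53. Its percentiles overlapped between the groups, at 27.3 to 34.1 in DMSO and 24.0 to 42.7 in SNDX-5613. Ranked by fold enrichment, the site shifted by 0.85 points, against 4.53 by −log10 p. Ranked over all regions of each list, it shifted the other way, by -7.47 points.

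A second IGF2 site (chr11:2132823-2133228), in an exon 4278 bp downstream of the nearest start, was called in 3 of 3 SNDX-5613 libraries and in 0 of 3 DMSO libraries. Its pileup was 23 and 20 fragments in the deeper SNDX-5613 libraries and 4 in SNDX-5613 replicate 3, at percentiles of 40.2, 29.0 and 0.07 in the respective lists. The consensus set of the SNDX-5613 group held the site and that of the DMSO group did not. Among the 122 sites, 1 was gained in this sense and 0 were lost. Over all sites 0.147% were gained and 1.18% lost. With a threshold of 3 on −log10 q, with equal numbers of regions, or with a peak required to cover 50% of a site, the count of gained sites was 0.

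The IGF2 promoter site that was called most often (chr11:2137123-2137528, summit 36 bp before an alternative start) had 24, 27 and 20 fragments in DMSO and 36 and 41 in the deeper SNDX-5613 libraries. All of the latter were above the DMSO values before any adjustment for depth. The local background was higher too, at 2.065, 2.575 and 2.338 in DMSO and 3.861 and 4.508 in SNDX-5613. Fold enrichment therefore overlapped between the groups, at 8.16, 7.83 and 6.29 in DMSO and 7.612 and 7.625 in SNDX-5613. The canonical start of IGF2 had no promoter peak in any library. H19, the noncoding RNA expressed from the other parental copy of the domain (ENSG00000130600.22, chr11:1995166-2004552, minus strand), had 1 site in its window, 7452 bp downstream of the nearest start, with 7 fragments in SNDX-5613 replicate 2 only.

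GPC3, a cell-surface heparan sulphate proteoglycan and antigen of liver tumours (ENSG00000147257.16, chrX:133535745-133987100, minus strand), had a promoter peak in both deeper SNDX-5613 libraries and in 0 DMSO libraries, a pattern found at 2.39% of all sites. The site (chrX:133985652-133986037) had its summit 385 bp before the canonical start. Its pileup was 7 fragments in SNDX-5613 replicate 1 and 11 in replicate 2, at percentiles of 9.37 and 27.1 in their lists. The lowest pileup called anywhere was 6 and 7 in these libraries and 6 to 7 in DMSO, so the site was near the limit of detection. It was in the consensus set of the SNDX-5613 group only. The printed sequence holds the CCAAT box 2 times on the strand of the gene.

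Of the other 2 GPC3 sites, both intronic and called in all 5 deeper libraries, the one 63433 bp downstream of the nearest start had 15, 14 and 20 fragments in DMSO and 20 and 25 in SNDX-5613. The other had 15, 24 and 27, and 19 and 28. Neither was called in SNDX-5613 replicate 3.

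AFP, the fetal plasma protein measured as a serum marker of liver cancer (ENSG00000081051.8, chr4:73431138-73456174, plus strand), was closed at its canonical start in all 6 libraries. Inside the gene, a site in an intron 10315 bp downstream of that start (chr4:73446467-73446622) had 28, 48 and 46 fragments in DMSO and 35 and 35 in the deeper SNDX-5613 libraries. A weaker site 352 bp downstream of an internal alternative start (chr4:73450431-73450969) had 12, 19 and 16, and 16 and 15. At both sites the groups overlapped by rank in the 5 deeper libraries, and neither was called in SNDX-5613 replicate 3.

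DLK1, a transmembrane protein of the Notch ligand type that marks hepatoblasts (ENSG00000185559.16, chr14:100725705-100738224, plus strand), had 1 site, 11753 bp downstream of the nearest start. It was called with 3 fragments in SNDX-5613 replicate 3 only, at percentile 1.16 of that list. At MEG3, the neighbouring imprinted gene, a promoter peak was called in every library.

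Over the 21 sites common to all 6 libraries, 1 was higher and 3 were lower after SNDX-5613 in the sense that the groups did not overlap by percentile. Over all 33405 common sites the shares were 8.54% higher and 8.08% lower. The shift was negative at 14 of the 21 sites and positive at 7, between -14.0 and 10.97 points. Its median was -1.07 points, against -0.09 over all common sites. By relative pileup 2 sites were higher and 2 were lower, against 11.6% and 9.05% of the 33322 sites tested. These counts depended on the scale and on single libraries. Over the genome-wide background in place of the median, 1 was higher and 5 were lower (5.63% and 12.6% of all sites), and without DMSO replicate 1, 2 were higher and 7 lower (15.3% and 14.7%). With 3 against 3 libraries no exact permutation p can fall below 0.1, before or after adjustment, so the test could not single out a site. The lowest Benjamini-Hochberg p was 0.602 over all sites (exact permutation test).

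**Figure D3:**
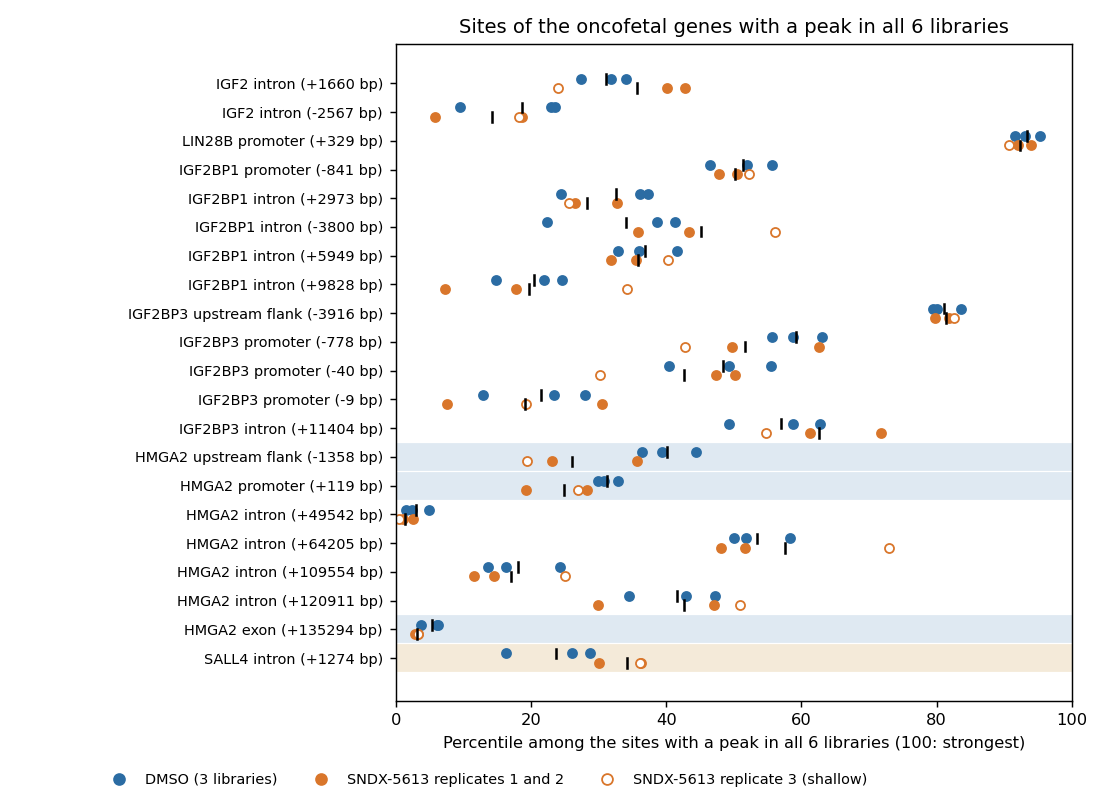
Percentile of the 21 common sites within each library (x axis, among common sites), with 1 point per library, a black bar at each group's mean and distances from the nearest start in bp. Shaded rows mark the 4 sites whose groups do not overlap, 3 at HMGA2 (lower, blue) and 1 at SALL4 (higher, beige).

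Without SNDX-5613 replicate 3, 46 sites were common to the 5 deeper libraries, and percentiles were taken again among those common sites. Of these, 6 were higher and 6 were lower after SNDX-5613, against 14.3% and 14.4% of 59986 sites. The shift was negative at 32 of the 46 sites, with a median of -2.08 points against -0.13 over all sites. By relative pileup 5 of the 46 were higher and 11 were lower, against 14.3% and 18.8% of 59984 sites, and 7 of the 11 lower sites were at HMGA2 and 3 at IGF2BP3. By percentile HMGA2 had 15 of the sites, with 13 negative shifts and a median of -3.76 points, and IGF2BP3 9, with 7 negative and a median of -3.35. LIN28B had negative shifts at 3 of 3 sites, but its promoter site moved by only -0.16 points. Of the other LIN28B sites, the one at -6.51 points had overlapping groups and the one at -14.4 did not. IGF2 had 3 sites between -8.09 and 14.1 points, with a median of 10.1. SALL4 had 3 between -5.65 and 11.7, with a median of 8.05. That median was a flank site whose groups overlapped, at 51.3 and 5.54 in SNDX-5613 replicates 1 and 2. GPC3 had 2, at 2.28 and 12.8, with a median of 7.54.

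The 6 higher sites were the IGF2 promoter site (14.1 points), the IGF2 intron site (10.1), the SALL4 intron site (11.7), the GPC3 intron site 63433 bp from the nearest start (12.8) and HMGA2 introns 68033 and 95424 bp downstream of the nearest start (10.6 and 13.0). At the IGF2 promoter site the percentiles were 32.5, 25.4 and 16.7 in DMSO and 35.7 and 42.3 in SNDX-5613. The GPC3 intron site stood at 22.8, 9.77 and 25.3 in DMSO and 26.9 and 37.3 in SNDX-5613.

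The largest lower shift was in an HMGA2 intron (chr12:65892836-65893264), where the pileup was 54, 83 and 73 fragments in DMSO and 49 and 46 in SNDX-5613. Its percentiles were 47.2, 55.2 and 50.6, and 32.6 and 25.01, a shift of -22.2 points. An HMGA2 site 113522 bp downstream of the nearest start shifted by -17.4 points and the HMGA2 promoter by -6.77. A pair of IGF2BP3 sites beside internal alternative starts shifted by -19.2 points (18, 32 and 32 fragments in DMSO, 16 and 17 in SNDX-5613) and by -7.79 points (60, 80 and 72, and 53 and 55). The LIN28B intron site 120953 bp downstream shifted by -14.4 points.

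**Figure D4:**
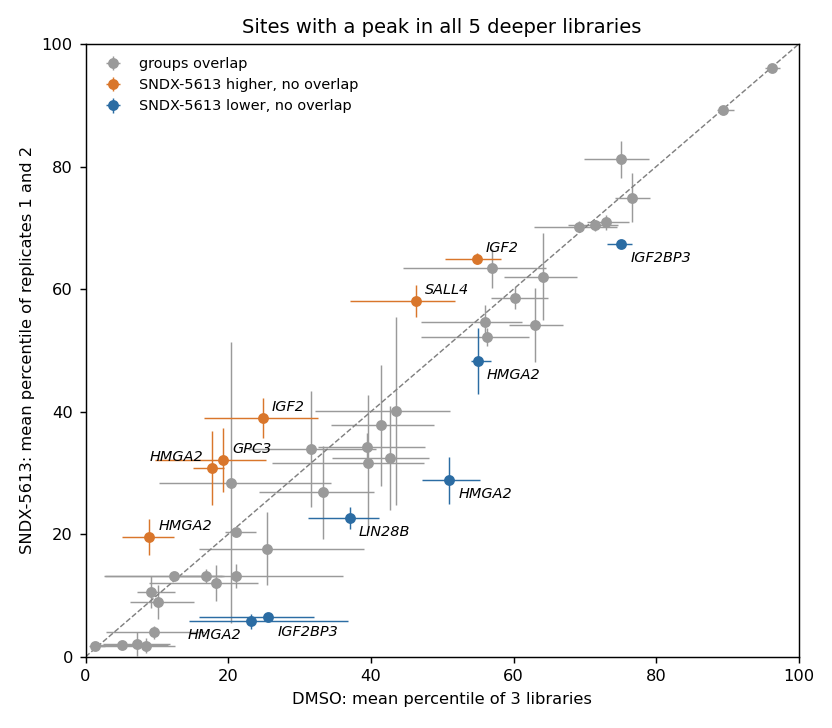
Mean percentile of the 46 sites common to the 5 deeper libraries in DMSO (x axis, 3 libraries) and SNDX-5613 (y axis, replicates 1 and 2), with bars from the lowest to the highest library and a dashed line of equal values. Named points are the 6 higher and 6 lower sites whose groups do not overlap.

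Presence was compared in the same 5 libraries. In both deeper SNDX-5613 libraries and in 0 of 3 DMSO libraries, 3 of the 122 sites were called: the IGF2 exon site, the GPC3 promoter site and an IGF2BP3 intron site with 8 fragments in each. This pattern held for 2.39% of all sites. The opposite pattern held for 0 of the 122 sites and for 1.21% of all sites. Across libraries, 66, 80 and 74 sites were called in DMSO and 77, 64 and 24 in SNDX-5613, which is 0.781, 0.731 and 0.789, and 0.742, 0.673 and 0.62 per 1000 sites of the library. Of the consensus regions of the study, 58 of the 122 sites were in both groups' sets, 9 in that of DMSO only and 6 in that of SNDX-5613 only, against 46.6%, 6.16% and 5.85% of all sites.

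The sequence around the summits was searched for 4 motifs within 100 bp on both strands. CCAAT was found at 10 of the 21 common sites (47.6%), at 35 of the 122 sites (28.7%) and at 24.3% of all sites, or 26.7% of the common ones. IGF2BP3 held 12 of the 35 and HMGA2 11. The AP-1 motif TGANTCA was found at 12 of the 122 sites (9.8%, against 15.5% of all sites), and 7 of the 12 were at HMGA2. CATTCC, the TEAD motif, was found at 16 sites (13.1%, against 15.5%), 8 of them at HMGA2. The loose CTCF core, chosen after the sequences were seen, was found at 10 sites (8.2%, against 12.8%). Of the 21 common sites 2 held it, the SALL4 and IGF2 intron sites (9.5%, against 20.4% of all common sites). The 10 also included the IGF2 exon site, the strongest AFP intron site and the LIN28B intron site that shifted down. The rest, at IGF2, IGF2BP1, IGF2BP3, LIN28B and GPC3, were not among the sites called higher, lower, gained or lost. IGF2 held 3 of these 10, and HMGA2 held 0.

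Genes of the same pathways were counted from the lists of related genes, by promoter peaks and by the non-overlap of percentiles at common promoter sites. A promoter peak in every library was found at 44.1% of all genes and 63.6% of protein-coding ones. In the 5 deeper libraries the share was 49.6% of all genes. By percentile, 8.54% of all common sites were higher and 8.08% lower. Of 10 other genes of the let-7 and IGF axis, 8 were open at a promoter in every library and 2 in none, LIN28A (the paralogue of LIN28B) and TRIM71 (a let-7 target). In this list 2 promoters were higher and 0 lower after SNDX-5613, IGF2BP2 by 11.6 points and IGF2R, the receptor that clears IGF2, by 6.46. IGF2BP2 was at 35.9, 34.4 and 36.3 in DMSO and 47.4, 56.8 and 37.2 in SNDX-5613, with replicate 3 just above DMSO. Of 8 other imprinted genes, 5 were open at a promoter in every library and 7 in the 5 deeper libraries, with PEG10 and MEST added. PEG3 was higher by 14.8 points, at 3.01, 5.74 and 0.03 in DMSO and 7.28, 12.5 and 33.5 in SNDX-5613. The site was thus weak in DMSO, and the highest value came from the shallow SNDX-5613 replicate 3.

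Of 8 genes of the AFP locus and its regulators, 3 were open at a promoter in every library, and likewise 3 in the 5 deeper libraries. ALB and AFM, which lie beside AFP, had none, like the AFP start. The AFP repressor ZBTB20 was open in every library, with 1 further promoter site that was lost (called in every DMSO library and not after SNDX-5613). Over all sites 1.18% were lost. Of 7 hepatoblast and progenitor genes, 3 had promoter peaks in all 6 libraries and 5 in the 5 deeper libraries, with PROM1 and THY1 added. SOX9 was higher by 9.38 points, a non-overlap in the direction that held for 8.54% of common sites. Of 7 SALL and pluripotency genes, MYCN was open in all 6 libraries, and 4 were open in the 5 deeper libraries, MYCN, SALL3, POU5F1 and SOX2. SALL1, like GPC3, had a promoter peak in 0 DMSO libraries and in both deeper SNDX-5613 libraries. Among the related genes, MEG3, GRB10 and PROM1 also had a promoter site with this pattern, which held for 2.39% of all sites.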

How the data were processed

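ATAC-seq peak lists of 3 DMSO and 3 SNDX-5613 libraries of HLF cells, grouped by their labels, were analysed. Per the submitters' notes and the study's methods, the authors trimmed reads with Trim Galore 0.6.7, aligned them to hg38 with Bowtie2 2.3.4.1, marked duplicates with Picard 2.20.0, called peaks with MACS2 in each library, and counted reads in consensus peaks for DESeq2; a shift for the Tn5 cut is not given in the sources used here. Deposited columns give the fold enrichment (a ratio), the −log10 p and the −log10 q of each summit. In the deposited consensus sets each region carries a score, which was not used.

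Python 3.11.15, numpy 2.4.6, scipy 1.17.1 and pandas 2.3.3 were used. Summits sharing a region were merged on chromosomes 1 to 22, X and Y, and regions overlapping by 1 bp or more formed sites. Whole-number pileups were solved from fold and −log10 p (tolerance 5e-05). They were found for at least 99.8% of regions per library, against at most 0.698% with shuffled p. Starts came from GENCODE release 44. Read counts were not analysed here, so the tests were exact two-sided permutation tests of percentiles and relative pileups; p-values cover only the spread between these libraries. The study describes dishes split between treatments, but the labels do not tie same-numbered libraries. The correlation of their deviations was 0.031, 0.000 and 0.018, so the main comparison is unpaired. Scripts were tested on simulated data.

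The 10 genes, the lists of related genes and the settings were chosen with earlier results of these data known, and the CTCF core was chosen after the sequences were seen. All 10 genes were named, and 1 cell type marker is not reported here. By rule, sites were named if they were the strongest of their gene or its strongest promoter site, had groups that did not overlap, or were gained or lost. The SALL4 summit 117 bp before its start and the IGF2BP3 site 40 bp before its start were added after their values were seen.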

Additional observations from a re-analysis of the deposited data

How the results depend on the processing

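Counts at these genes are small and some of them moved with most settings, and the cause was not tested. The main comparison had 1 site higher and 3 lower by percentile, 2 and 2 by relative pileup, 1 gained and 0 lost. These counts were the same with fixed windows around the summits. By percentile, the sites higher were 0 with a peak covering 50% of a site, 0 ranked by fold, 0 over all regions of the list, 3 with 25 kb flanks and 2 with the replicate block, in which all 3 same-numbered pairs had to move the same way. The sites lower were 1 with equal numbers of regions, 0 ranked by fold and 0 over all regions of the list. By relative pileup, the sites higher were 0 with 50% cover and 1 over the genome-wide background, and the sites lower were 1 with 50% cover, 1 without flanks, 5 over the genome-wide background and 4 with the replicate block. Over all common sites, 16.2% moved up and 16.5% down in all 3 pairs, and the other counts with the block were 3 sites lower by percentile and 3 higher by pileup. The labels do not say whether same-numbered libraries share a dish, so whether the numbers pair the libraries is not known. Gained sites were 0 with −log10 q of at least 3, with equal numbers and with 50% cover, and lost sites were 1 with equal numbers and 1 with 50% cover.

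In the 5 deeper libraries, gained sites were 1 with −log10 q of at least 3 and 1 with equal numbers in place of 3, and lost sites 1 with equal numbers and 1 with 50% cover in place of 0. Percentiles there were higher at 2 sites with equal numbers and at 1 with 50% cover in place of 6, and lower at 1 with equal numbers in place of 6. Promoter peaks in all 6 libraries were found at 4 genes, and at 6 within 3 kb. Leaving out each library in turn gave 1 to 6 sites higher and 3 to 6 lower by percentile, 2 to 5 higher and 2 to 11 lower by pileup, 1 to 3 gained, 0 to 6 lost and 4 to 6 genes with a promoter peak in every library kept. Without SNDX-5613 replicate 3 these counts were 6, 6, 5, 11, 3, 0 and 6. Without DMSO replicate 1, 7 sites were lower by pileup and 2 lost, without DMSO replicate 3, 3 were lost, without SNDX-5613 replicate 1, 2 were higher by percentile, 4 higher by pileup and 6 lost, and without SNDX-5613 replicate 2, 1 was lost. The HMGA2 promoter moved by 3.73 and its upstream site by 0.98 points ranked by fold, each against its main direction. Over all regions of the list, the SALL4 intron site moved by -1.52 points and the IGF2 intron site by -7.47, again against their main direction. Depth limits these lists to strong sites in SNDX-5613 replicate 3.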
